A study of Mus musculus with 24 samples.

Results

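The genes described here are markers of reactive astrocytes and acute inflammation: Vim, Serpina3n, Lcn2, Cd44, Osmr, Timp1, S1pr3, Steap4, Cp and C3. They were measured in whole brain RNA from 4 month old mice on 24 arrays. The 4 groups, of 6 arrays each, were mice labelled aSYN/Hsp70, aSYN only, Hsp70 only and wildtype (wt). The names are those of alpha-synuclein, the protein that accumulates in Parkinson's disease, and of the heat shock protein Hsp70, a chaperone that binds misfolded proteins. The labels give neither the promoter nor the origin of a transgene, nor sex, strain or litter, and do not say that each array came from a separate animal, so the p-values measure the spread between these arrays. The members were every probe set that the platform annotation gave to 1 of these genes alone. They came to 26 of 45101 probe sets and covered 9 of the 10 genes. No probe set was named for C3 alone, and C3 was not analysed here.

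Astrocytes, the glial cells that support neurons and the blood-brain barrier, respond to injury, infection and neurodegeneration by enlarging and by changing their gene expression. Intermediate filament genes and secreted acute-phase proteins are usual markers of this state, and cytokines of the interleukin-6 family, such as oncostatin M acting through OSMR and STAT3, are among its inducers. Several of the same genes are also expressed by microglia, endothelial cells, fibroblasts or choroid plexus, so in whole brain they are not specific to astrocytes. In such bulk tissue, fewer cells of a type and less RNA per cell cannot be told apart.

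Levels are given as log2 of the intensity plus an offset of 16, quantile-normalised after the log. A difference of 1 is thus a doubling at high levels and understates the change of dim genes. Levels are compared only within a probe set, since different probe sets bind their targets differently. Of 45101 probe sets, the 40% with the lowest mean and 64 controls were left out, and 27022 were tested with limma. Of the 26 members, 17 were tested, and they covered 7 genes. The other 9 were dim: the single Lcn2 probe set, both of Steap4, 2 of 4 for Cd44, 2 of 3 for Osmr, 1 of 3 for S1pr3 and 1 of 8 for Cp. Timp1, brighter than 40.09% of all probe sets, lay just inside the filter, and the third S1pr3 probe set, at 39.99%, lay just outside.

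Before normalisation the median intensity of an array was 458 to 893, and the rank correlation between arrays was 0.871 to 0.981. By limma's array weights, 4 arrays stood apart with weights under 0.5: aSYN/Hsp70 replicates 3 and 4 and Hsp70 replicates 3 and 6. Member results that rest on them are given with and without them. For other genes the differences, apart from that of Il6st, are given with all arrays only. By sex-linked transcripts, 2 aSYN/Hsp70, 4 aSYN, 3 Hsp70 and 4 wt arrays were from females. The brain label was checked against marker lists: 10 of 10 astrocyte, 9 of 10 microglial and 5 of 5 neuronal genes had a probe set among those tested.

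None of the 17 tested probe sets passed an adjusted p of 0.05 in any comparison. The questions asked were what aSYN or Hsp70 did alone and together, relative to wt, what Hsp70 added to aSYN, what aSYN added to Hsp70, and whether the aSYN difference was itself different with Hsp70 (the interaction). In aSYN against wt, 0 of 17 were called, where 0.0037% of all tested probe sets were. In aSYN/Hsp70 against aSYN it was again 0 of 17, beside 0.718% of all. In Hsp70 against wt, aSYN/Hsp70 against wt, aSYN/Hsp70 against Hsp70 and the interaction, 0 of 17 were called and 0% of all tested probe sets. The smallest adjusted p among the 102 tests was 0.3377, for the Vim probe set 1438118_x_at in aSYN/Hsp70 against aSYN.

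At an unadjusted p under 0.05, 4 of the 102 tests (3.922%) passed. They were Timp1 in aSYN against wt and in aSYN/Hsp70 against wt, S1pr3 in aSYN/Hsp70 against Hsp70, and 1 Vim probe set in the interaction. The members' count was 1 of 17 in aSYN against wt, where 5.17% of all tested probe sets passed, and 0 of 17 in Hsp70 against wt, where 4.83% did. It was 1 of 17 in aSYN/Hsp70 against wt (14.5% of all), 0 of 17 in aSYN/Hsp70 against aSYN (19.6% of all), 1 of 17 in aSYN/Hsp70 against Hsp70 (9.62% of all) and 1 of 17 in the interaction (8.13% of all). For 0 of the 17 members did the 6 arrays of one group all lie above those of the other in any comparison of 2 groups. Over all tested probe sets this held for 1.17% in aSYN against wt, 0.27% in Hsp70 against wt, 0.888% in aSYN/Hsp70 against wt, 2.05% in aSYN/Hsp70 against aSYN and 0.311% in aSYN/Hsp70 against Hsp70. The plot of differences with their intervals shows most intervals reaching across 0, and their width differs greatly between genes.

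**Figure D1:**
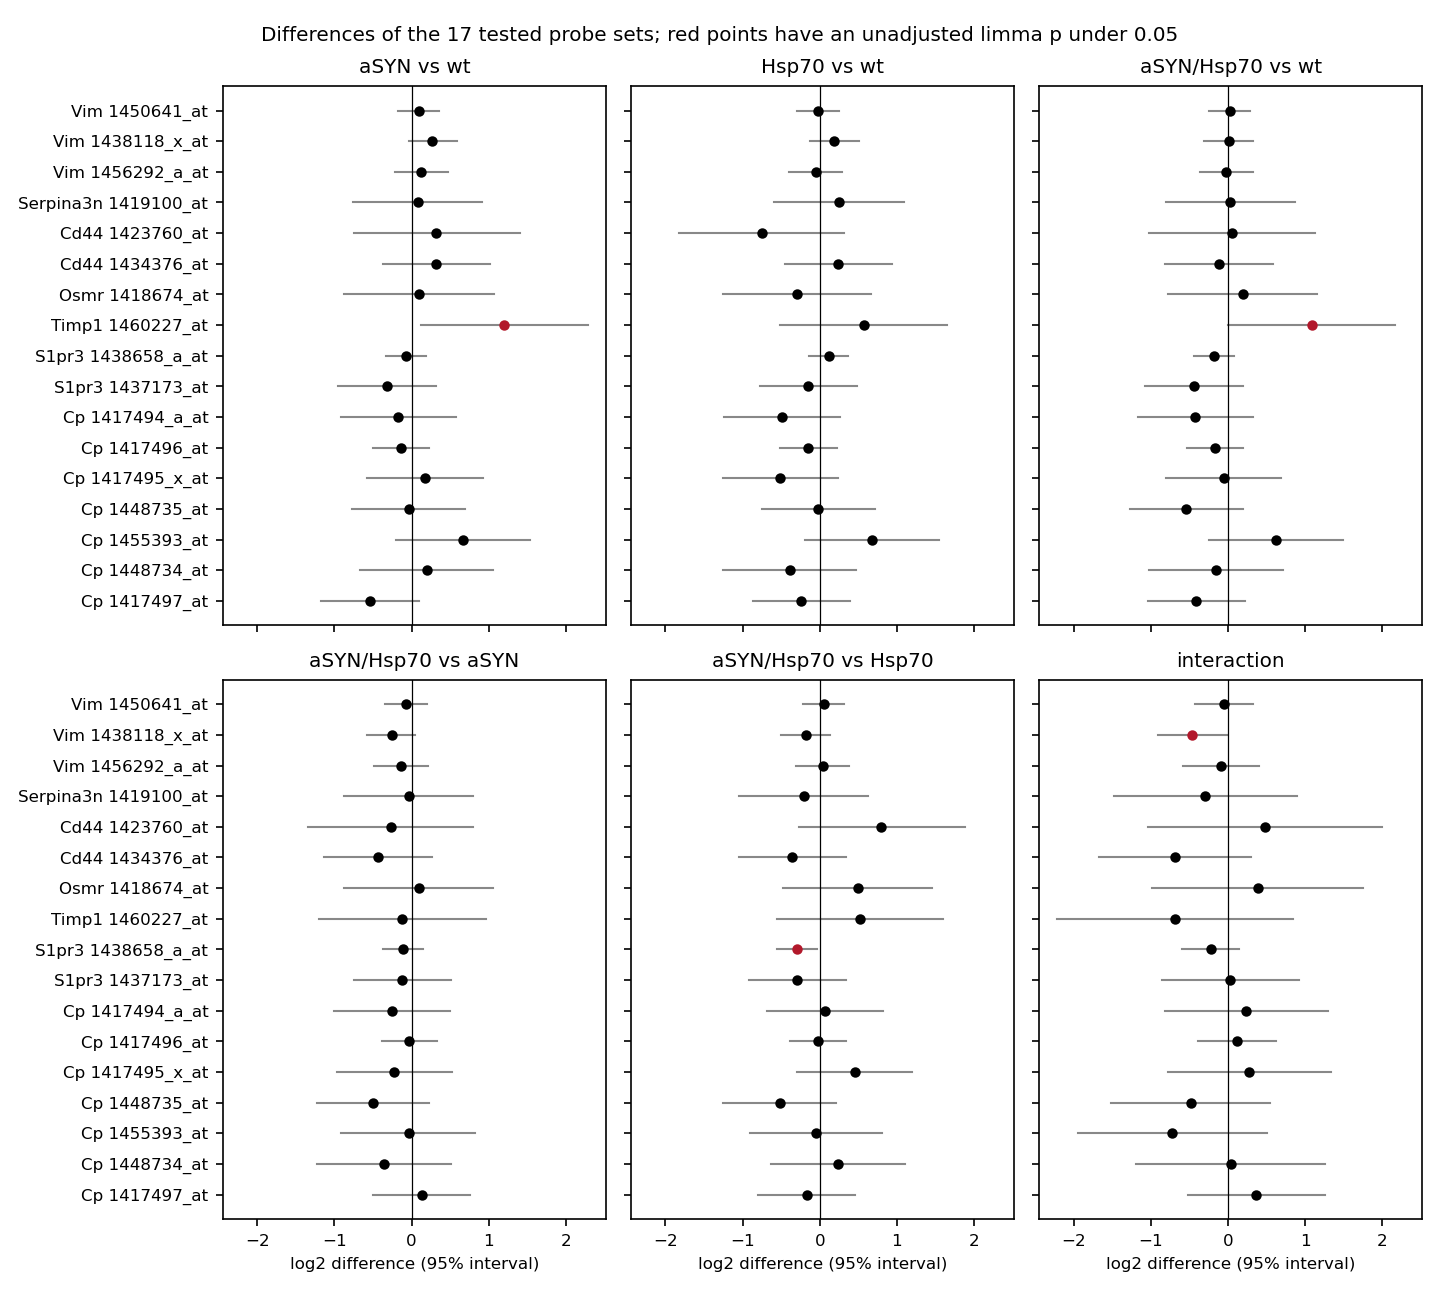
Differences (x axes, log2 units, first group minus second; the interaction subtracts the aSYN minus wt difference from that of aSYN/Hsp70 minus Hsp70) of the 17 tested member probe sets (y axes) in 6 comparisons, with points for the limma estimate and bars for its 95% interval. The 4 red points are the tests with an unadjusted p under 0.05, and none of the 102 passed after adjustment over all 27022 probe sets.

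In aSYN against wt, 11 of the 17 members were higher and 6 lower, with a median difference of 0.10, beside 0 over all tested probe sets. In Hsp70 against wt, 6 were higher and 11 lower (median -0.05, all -0.02). In aSYN/Hsp70 against wt, 7 were higher and 10 lower (median -0.05, all -0.04). These medians are small against the 95% intervals of single members, which reached 0.26 to 1.08 to each side.

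In aSYN/Hsp70 against aSYN, 15 of the 17 members were lower and 2 higher, with a median of -0.12, beside -0.03 over all tested probe sets, of which 45.71% were higher. The probe sets of one gene share a target, and 6 of the 7 Cp probe sets and all 3 of Vim are among the 15. In aSYN/Hsp70 against Hsp70, 8 were higher and 9 lower (median -0.02, all -0.01), and the interaction had the same counts (median -0.05, all -0.02). The comparisons with wt share the wt arrays, and those of aSYN/Hsp70 share its arrays, so they are not independent of each other.

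Vim encodes vimentin, an intermediate filament protein of reactive astrocytes and of vessel and meningeal cells. Its brightest probe set, 1450641_at, ranged from 12.53 to 13.25 (median 12.70) in aSYN/Hsp70, from 12.58 to 13.07 (12.88) in aSYN, from 12.59 to 13.09 (12.66) in Hsp70 and from 12.48 to 13.20 (12.68) in wt. All 4 groups overlapped over almost their whole ranges. The difference was 0.10 in aSYN against wt (95% interval -0.17 to 0.36) and -0.07 in aSYN/Hsp70 against aSYN (-0.34 to 0.20). Over all 24 arrays Vim varied by 1.71-fold, among the tightest of these genes.

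The second Vim probe set, 1438118_x_at, had 11.96 ± 0.33 in aSYN/Hsp70, 12.22 ± 0.22 in aSYN, 12.14 ± 0.20 in Hsp70 and 11.95 ± 0.30 in wt (SD, n = 6 each). The aSYN arrays and the Hsp70 arrays were each higher on average than wt, and aSYN/Hsp70 was level with wt. The interaction was -0.46 (SE 0.22, interval -0.91 to -0.01), with an unadjusted limma p of 0.04674 and an adjusted p of 0.6096, and it was -0.35 (unadjusted p = 0.1523) without the 4 arrays that stood apart. With all arrays the interaction was -0.05 on the brightest probe set and -0.09 on the third. The 3 thus shared a sign and differed in size. Without the 4 arrays it was -0.16 on the brightest and 0.01 on the third, so the shared sign did not hold. The 3 Vim probe sets correlated within groups at r = 0.34 to 0.43 with all arrays, and at 0.59 to 0.81 without the 4 arrays.

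Serpina3n encodes a secreted serine protease inhibitor of the acute phase, a marker of reactive astrocytes in many models. Its probe set had 11.97, 11.52, 11.00, 13.00, 10.85 and 12.02 in aSYN/Hsp70, 11.82, 11.58, 11.11, 11.98, 11.99 and 12.13 in aSYN, 12.05, 10.80, 12.04, 12.44, 12.07 and 12.24 in Hsp70, and 12.58, 12.07, 10.66, 12.70, 11.90 and 10.24 in wt. The lowest and the second highest of the 24 values were both from wt, and the highest was aSYN/Hsp70 replicate 4, an array that stood apart. The whole range was 6.77-fold. The group means lay between 11.69 (wt) and 11.94 (Hsp70), and the difference was 0.08 in aSYN against wt (interval -0.76 to 0.91) and -0.04 in aSYN/Hsp70 against aSYN (-0.88 to 0.80). True differences of any size inside these intervals remained compatible with these values.

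Timp1 encodes a secreted inhibitor of matrix metalloproteinases that rises in astrocytes in response to inflammatory cytokines in mice. Its values were 8.62, 7.35, 8.81, 9.17, 8.22 and 8.88 in aSYN/Hsp70, 8.77, 7.69, 8.62, 8.89, 9.07 and 8.73 in aSYN, 8.23, 7.38, 6.18, 8.19, 8.70 and 9.26 in Hsp70, and 6.30, 8.29, 8.82, 8.02, 5.36 and 7.74 in wt. The lowest aSYN/Hsp70 and aSYN values were 7.35 and 7.69, and wt held 2 values below these, so the groups differed mostly at their low ends and overlapped at their high ends. All 6 aSYN arrays and 5 of 6 aSYN/Hsp70 arrays were above the wt mean.

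The Timp1 difference was 1.20 in aSYN against wt (SE 0.52, interval 0.12 to 2.29), the largest among the tested members in that comparison. Its unadjusted limma p was 0.03081 and its adjusted p 0.8745. In aSYN/Hsp70 against wt it was 1.09 (SE 0.52), with an unadjusted p of 0.04932 and an adjusted p of 0.3434. Without the arrays that stood apart, that second difference was 0.84 (interval -0.27 to 1.96). The first compares groups that hold none of those arrays, so its value could not change. Hsp70 alone differed from wt by 0.57 (-0.51 to 1.65), and aSYN/Hsp70 from aSYN by -0.12 (-1.20 to 0.96). Without wt replicate 5, the lowest array, the differences of aSYN and aSYN/Hsp70 from wt were 0.79 and 0.67, and with the largest offset tried they were 0.53 and 0.47. The probe set lies at the edge of the dimness filter, and its SD within groups, 0.95, was higher than that of 95.21% of tested probe sets.

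**Figure D2:**
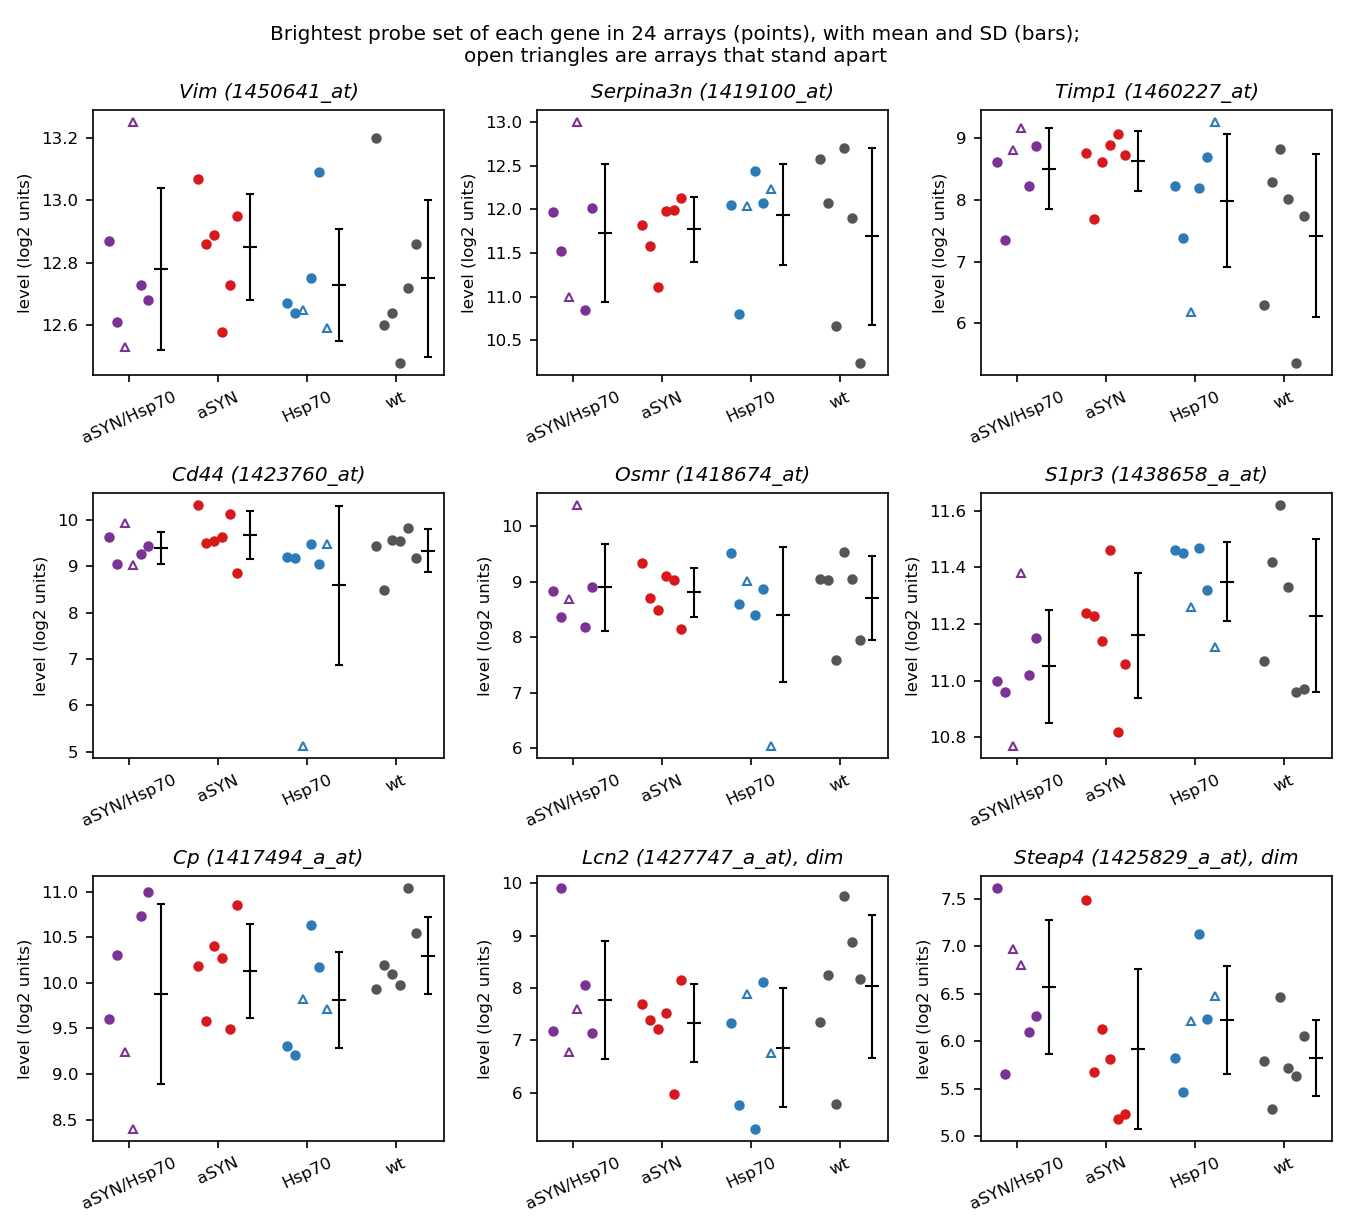
Levels (y axes, log2 units, each panel on its own scale) of the brightest probe set of 9 genes on the 24 arrays, 6 for each group (x axes), as points beside bars for the group mean and SD; open triangles are the 4 arrays that stood apart. The groups overlap in every panel. The lowest Timp1 value, 5.36, is a wt array, and single arrays lie far below the rest for Cd44 and Osmr in Hsp70.

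Cd44 encodes a cell surface receptor for hyaluronan and osteopontin, found on reactive and fibrous astrocytes and on leukocytes. Its brightest probe set, 1423760_at, ranged from 9.03 to 9.94 (median 9.35) in aSYN/Hsp70, from 8.86 to 10.32 (9.59) in aSYN, from 5.13 to 9.49 (9.20) in Hsp70 and from 8.48 to 9.82 (9.50) in wt. A single Hsp70 array, replicate 3, gave the value of 5.13, and it is among those that stood apart. The difference of Hsp70 from wt was -0.75 (interval -1.83 to 0.32), and without the 4 arrays it was -0.11 (-0.64 to 0.42). Likewise aSYN/Hsp70 differed from Hsp70 by 0.80 with all arrays and by 0.12 without them. aSYN differed from wt by 0.32 on both tested probe sets (interval -0.75 to 1.40 on the brightest).

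The second tested Cd44 probe set, 1434376_at, had its highest level of all, 9.93, on that same Hsp70 array, and its lowest, 6.89, on aSYN/Hsp70 replicate 3. The 2 probe sets thus disagreed on the arrays that stood apart. Within groups they correlated at r = -0.35 over 24 arrays, and at 0.22 over the other 20. The 2 dim probe sets had means of 8.02 and 5.92 over all arrays.

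Osmr encodes the receptor subunit that, with gp130, binds oncostatin M. Its tested probe set, 1418674_at, ranged from 8.19 to 10.38 (median 8.76) in aSYN/Hsp70, from 8.15 to 9.34 (8.88) in aSYN, from 6.05 to 9.52 (8.74) in Hsp70 and from 7.59 to 9.54 (9.04) in wt. The highest and the lowest values both came from arrays that stood apart, aSYN/Hsp70 replicate 4 and Hsp70 replicate 6. aSYN/Hsp70 differed from Hsp70 by 0.49 (interval -0.48 to 1.45), and by -0.28 without the 4 arrays, so the sign rested on them. Against wt the differences were 0.10 for aSYN, -0.30 for Hsp70 and 0.19 for aSYN/Hsp70, none with an unadjusted p under 0.05. Without the 4 arrays they were 0.14 for Hsp70 and -0.13 for aSYN/Hsp70, each with its sign turned.

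The dim Osmr probe set 1418675_at was at 7.25 ± 1.19 in aSYN/Hsp70, 6.60 ± 1.35 in aSYN, 5.62 ± 1.11 in Hsp70 and 7.29 ± 1.14 in wt (SD, n = 6 each). In Hsp70, 5 of 6 arrays lay between 4.90 and 5.64 and 1 at 7.83. In a limma fit on all 45037 probe sets with no filter, Hsp70 was lower than wt by a difference of -1.67 (unadjusted p = 0.02084, adjusted 0.9498). aSYN/Hsp70 was above Hsp70 by 1.63 (unadjusted p = 0.02395, adjusted 0.5415), and the interaction was 2.32 (unadjusted p = 0.02288, adjusted 0.6947). From the group means without the arrays that stood apart, these differences were -1.49, 0.93 and 1.63. The tested Osmr probe set gave -0.30, 0.49 and 0.39 for the same differences. The other dim Osmr probe set, 1459217_at, gave 1.01, -0.31 and -0.73 in the fit with no filter, each opposite in sign to 1418675_at. From the group means without the arrays that stood apart it gave 1.08, -1.1 and -1.52. Over the 9 dim probe sets, none of 54 tests was called, and 4 of them (7.407%) passed at an unadjusted p of 0.05. Over all 45037 probe sets of that fit, 4.44% passed unadjusted in aSYN against wt, 4.54% in Hsp70 against wt, 11.1% in aSYN/Hsp70 against wt, 14.0% in aSYN/Hsp70 against aSYN, 8.22% in aSYN/Hsp70 against Hsp70 and 6.6% in the interaction. After adjustment 0.0955% passed in aSYN/Hsp70 against aSYN and 0% in the other comparisons.

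S1pr3 encodes a receptor for sphingosine-1-phosphate that is carried by astrocytes and endothelial cells. Its brightest probe set, 1438658_a_at, had 11.00, 10.96, 10.77, 11.38, 11.02 and 11.15 in aSYN/Hsp70, 11.24, 11.23, 11.14, 11.46, 10.82 and 11.06 in aSYN, 11.46, 11.45, 11.26, 11.47, 11.32 and 11.12 in Hsp70, and 11.07, 11.42, 11.62, 11.33, 10.96 and 10.97 in wt. Of the aSYN/Hsp70 arrays, 5 of 6 were below the Hsp70 mean by more than the SD of Hsp70, and 1 lay just above that mean. The aSYN and wt arrays overlapped both groups.

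The S1pr3 difference between aSYN/Hsp70 and Hsp70 was -0.30 (SE 0.12, interval -0.56 to -0.04), with an unadjusted limma p of 0.02631 and an adjusted p of 0.4492. Without the arrays that stood apart it was -0.39 (-0.68 to -0.09). The other tested probe set, 1437173_at, gave -0.29 (-0.92 to 0.34), and the dim one, in the fit with no filter, -0.81 with an unadjusted p of 0.04439. All 3 S1pr3 probe sets were thus lower in aSYN/Hsp70 than in Hsp70, with none called. The 2 tested probe sets correlated within groups at r = 0.59.

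Cp encodes ceruloplasmin, a copper-carrying ferroxidase that astrocytes attach to their surface and the liver and choroid plexus secrete. Its brightest probe set, 1417494_a_at, ranged from 8.40 to 11.00 (median 9.96) in aSYN/Hsp70, from 9.49 to 10.86 (10.22) in aSYN, from 9.21 to 10.63 (9.76) in Hsp70 and from 9.93 to 11.04 (10.15) in wt. The 2 lowest aSYN/Hsp70 arrays, replicates 3 and 4, both stood apart. aSYN/Hsp70 differed from wt by -0.42 (interval -1.17 to 0.33) with all arrays, and by 0.11 without those that stood apart. It differed from aSYN by -0.25, and by 0.28 without them.

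The 7 tested Cp probe sets did not share a direction. In aSYN against wt their differences ran from -0.54 to 0.67, with 3 higher and 4 lower, and in aSYN/Hsp70 against wt from -0.54 to 0.63, with 1 higher and 6 lower. Among the Cp probe sets, 1455393_at had the highest difference in these comparisons and in Hsp70 against wt (0.68). Its wt mean, 8.43 ± 1.11, included 1 array at 6.39. The plot of the 7 Cp probe sets shows that the array at the low or high end differs from probe set to probe set.

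**Figure D3:**
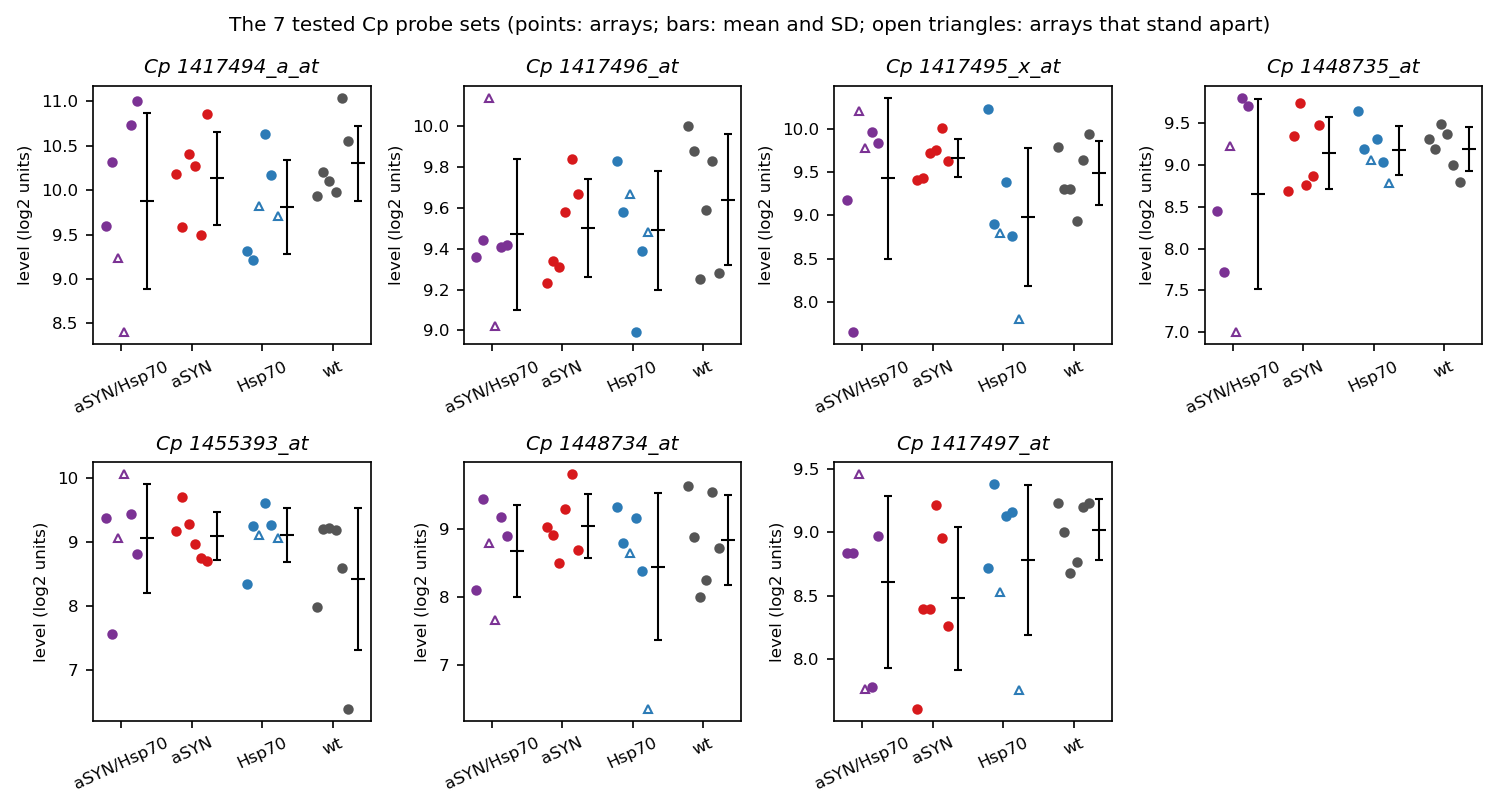
Levels (y axes, log2 units, each panel on its own scale) of the 7 tested Cp probe sets in the 4 groups of 6 arrays (x axes), as points beside bars for the mean and SD; open triangles are the arrays that stood apart. The groups overlap in every panel, and the lowest array is at 6.36 in Hsp70 for 1448734_at and at 6.39 in wt for 1455393_at.

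Lcn2 encodes lipocalin 2, a secreted siderophore-binding protein that is among the most induced astrocyte genes after inflammation in mice. Its only probe set was dim, above 30.65% of all probe sets, and ranged from 6.78 to 9.91 (median 7.38) in aSYN/Hsp70, from 5.98 to 8.16 (7.45) in aSYN, from 5.31 to 8.12 (7.04) in Hsp70 and from 5.79 to 9.76 (8.21) in wt. The 2 highest values of the 24, 9.91 and 9.76, came from aSYN/Hsp70 replicate 2 and wt replicate 4. In the fit with no filter, aSYN differed from wt by -0.71, Hsp70 from wt by -1.17 (unadjusted p = 0.07308) and aSYN/Hsp70 from wt by -0.26 (SE 0.62 each). aSYN/Hsp70 differed from aSYN by 0.45 and from Hsp70 by 0.91 (SE 0.62 each), and the interaction was 1.62 (SE 0.88, unadjusted p = 0.07943). From the group means without the arrays that stood apart, the differences of aSYN/Hsp70 were 0.03 from wt, 0.74 from aSYN and 1.44 from Hsp70, and the interaction was 2.14.

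Steap4 encodes a metalloreductase that is induced by inflammatory cytokines and reduces iron and copper. Both its probe sets were dim, and both stood highest on the same 2 arrays, aSYN/Hsp70 replicate 1 (7.61 and 8.04) and aSYN replicate 1 (7.48 and 8.06). On the brighter one, the other arrays were between 5.65 and 6.97 in aSYN/Hsp70, 5.18 and 6.13 in aSYN, 5.46 and 7.13 in Hsp70, and 5.29 and 6.46 in wt. aSYN/Hsp70 differed from wt by 0.74 on this probe set (interval -0.01 to 1.50, unadjusted p = 0.05403, adjusted 0.4546) and by 0.34 on the second (-0.57 to 1.24), in the fit with no filter. From the group means without the arrays that stood apart these were 0.58 and 0.62. The 2 probe sets correlated within groups at r = 0.57, and at 0.01 without the 2 arrays farthest from the median.

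The genes spread differently around their group means. The SD within groups was 0.21 for S1pr3 and 0.22 for Vim (brightest probe sets), below the median of 0.32 over all tested probe sets. It was 0.65 for Cp, 0.73 for Serpina3n, 0.84 for Osmr, 0.94 for Cd44 and 0.95 for Timp1. A group difference of the same size was therefore far easier to detect for Vim and S1pr3 than for Timp1 or Cd44.

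Whether the genes varied together between arrays of one group was asked with the brightest probe set of each, after subtracting each group's mean. Over the 36 pairs of 9 genes, Pearson's r ran from -0.35 to 0.47 with a median of 0, and 18 were positive. A single pair, Serpina3n with Osmr, had an unadjusted permutation p under 0.05: r = 0.47 (p = 0.03157, adjusted over the 36 pairs 0.6116) and Spearman's rho = 0.44 (p = 0.04722), over 24 arrays. It was 0.50 without the 2 farthest arrays and 0.69 without the 4 that stood apart. The heat map of r shows no block of genes that rose and fell together.

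**Figure D4:**
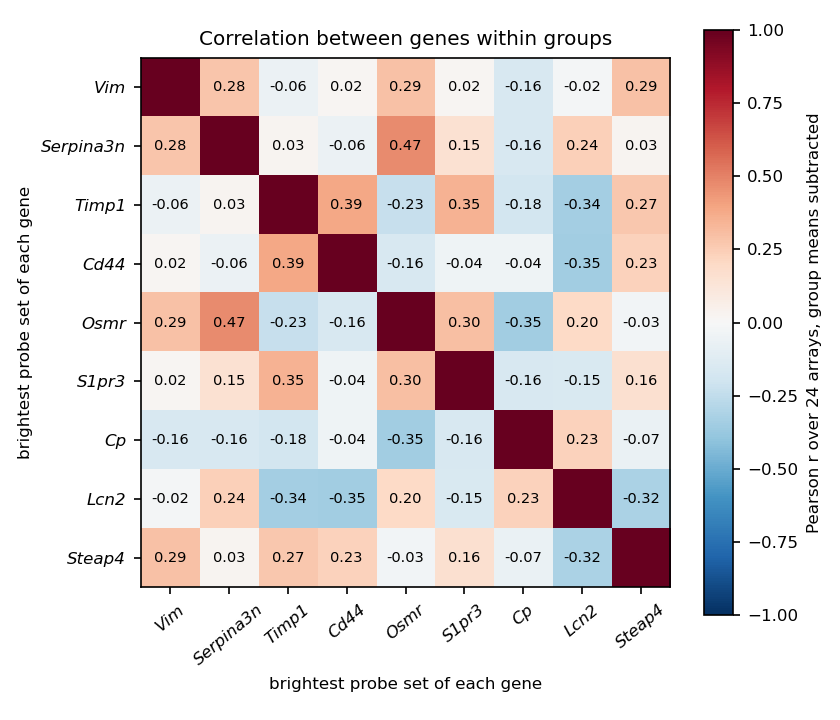
Pearson's r (colour and printed number, from -1 to 1) between the brightest probe sets of 9 genes (both axes) over 24 arrays after subtracting group means. The highest value off the diagonal is 0.47, for Serpina3n with Osmr, and 18 of the 36 pairs are positive.

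Probe sets of one gene, which should measure one transcript or its variants, were compared in the same way after the values had been seen. Over 27 such pairs, none passed the permutation test adjusted over the pairs. S1pr3 came closest, with r = 0.59 (p = 0.00255, adjusted 0.06885) and rho = 0.59. It was 0.55 without the 2 farthest arrays and 0.45 without those that stood apart. Of 21 Cp pairs, 15 were positive, with a median of 0.21 and a range from -0.34 to 0.55.

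**Figure D5:**
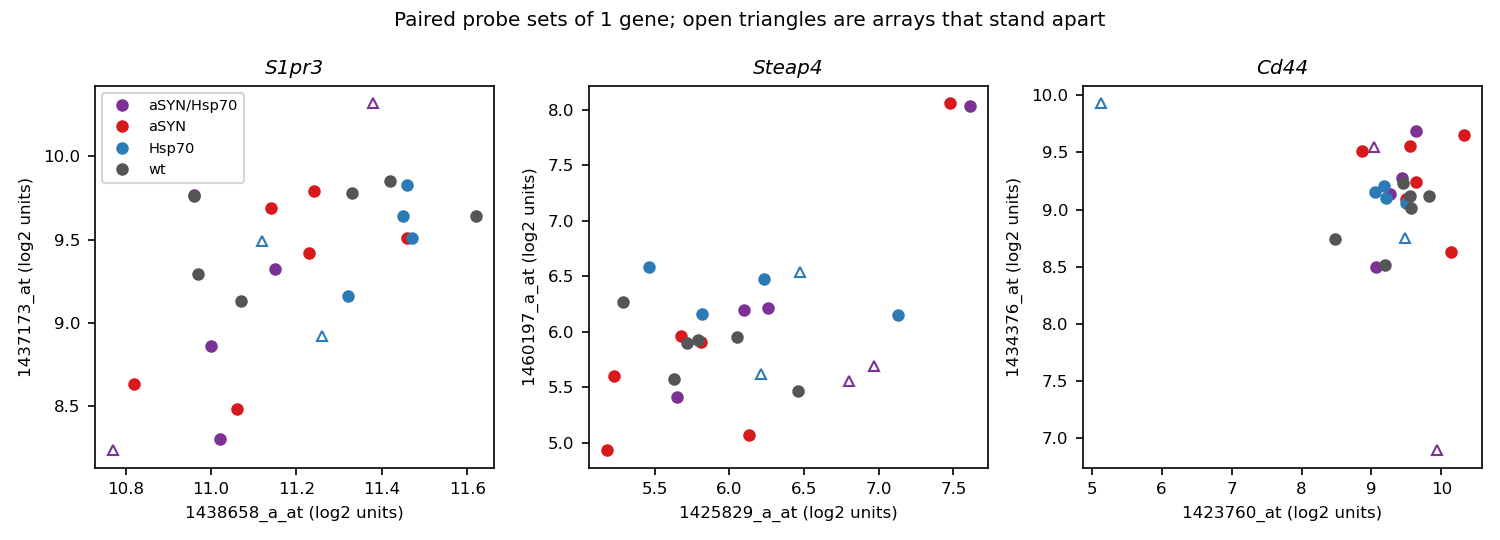
Levels (both axes, log2 units) of 2 probe sets each for S1pr3, Steap4 and Cd44 on the 24 arrays, coloured by group, with open triangles for the arrays that stood apart. The S1pr3 points rise together (r = 0.59 within groups), 2 arrays lie at the upper right for Steap4, and for Cd44 the array at 5.13 on 1 probe set is at 9.93 on the other.

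Gfap, the intermediate filament gene that defines reactive astrocytes, is not among these genes but was set beside them after its values were seen. Its brightest probe set had 14.28, 13.18, 13.51, 14.63, 13.35 and 13.38 in aSYN/Hsp70, 14.46, 13.21, 13.83, 13.12, 13.28 and 13.02 in aSYN, 13.23, 13.24, 13.28, 13.66, 13.31 and 13.76 in Hsp70, and 13.55, 13.17, 13.04, 13.37, 13.40 and 13.39 in wt. The 3 values above 14 were all from arrays labelled aSYN/Hsp70 or aSYN. The highest of them, 14.63, was on aSYN/Hsp70 replicate 4, which stood apart. The other arrays of those groups lay within or near the range of wt and Hsp70. No Gfap comparison on its 3 probe sets had an unadjusted p under 0.05. With all arrays, the difference was 0.40 in aSYN/Hsp70 against wt (interval -0.10 to 0.90) and 0.16 in aSYN against wt (-0.34 to 0.66).

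Within groups, Steap4 and Vim followed Gfap most closely among the 9 genes. The brighter Steap4 probe set had r = 0.73 with Gfap (permutation p = 0.00141, adjusted over the 9 pairs 0.01269) and rho = 0.67 (p = 0.00131). It was 0.68 without the 2 arrays farthest in Gfap and 0.82 without those that stood apart. The array aSYN/Hsp70 replicate 1, high in both genes, remained in both of these checks. The brightest Vim probe set had r = 0.57 (p = 0.00415, adjusted 0.01867) and rho = 0.49, and r fell to 0.34 without the 2 farthest arrays. Adjusted over all 85 correlations computed, these p-values were 0.06375 and 0.08819.

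The relation held less evenly on the other probe sets. The 5 other pairings of a Gfap with a Steap4 probe set had r of 0.41 to 0.73. The 8 other pairings of Gfap with Vim had r of -0.17 to 0.52. Of the remaining genes, Serpina3n had r = 0.34 with Gfap and Lcn2 -0.12, and none had an unadjusted p under 0.05. The 2 Steap4-high arrays were 2 of the 3 with Gfap above 14.

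The genes whose pattern within groups was most like each member's were looked up among 23573 other named probe sets, as a description over 24 arrays. For Vim they were Fat1 (r = 0.81), Dmkn (0.76) and Kank2 (0.75). For Serpina3n they were Cstf2 and Serping1 (0.71 each) and Lipa (0.68), and for S1pr3 Ier5 (0.85), Nfil3 and Ssh2 (0.78 each). Serping1 encodes the inhibitor of complement C1, Nfil3 a transcriptional repressor, and Lipa a lysosomal lipase. For Timp1 they were Zfp651 (0.81), Bysl (0.79) and Ksr1 (0.75), and for Cp Upp2 (0.85), Inmt (0.80) and Paxip1 (0.79). For Osmr they were St18 (0.85), Mosmo (0.83) and Vegfd (0.82), and for Cd44 Pramel12, Gm26910 and Ibtk (0.90 each); both Osmr and Cd44 have the outlying arrays described above.

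Other genes of the reactive and inflammatory programme were taken from 6 lists of 72 genes: further pan-reactive genes, A1-type and A2-type genes, the interleukin-6 family and cytokine signalling, complement, and acute phase and iron genes. Of them 63 were named on the array and 45 had a tested probe set. By the brightest probe set of each gene, none of the 45 was called in any comparison, higher or lower, with the main settings. At an unadjusted limma p under 0.05 there were 2 in aSYN against wt (both higher), 2 in Hsp70 against wt (both higher), 5 in aSYN/Hsp70 against wt (1 higher) and 10 in aSYN/Hsp70 against aSYN (3 higher). There were 3 in aSYN/Hsp70 against Hsp70 (none higher) and 3 in the interaction (2 higher). Over all tested probe sets the shares at this threshold were 5.17%, 4.83%, 14.5%, 19.6%, 9.62% and 8.13% in the same order.

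With the main settings, the single call among their 83 probe sets was Il6st, the gene of gp130, the shared receptor subunit that OSMR pairs with. The probe set 1421239_at was at 10.81 ± 0.15 in aSYN/Hsp70 and 9.94 ± 0.41 in aSYN (SD, n = 6 each), a difference of 0.87 (SE 0.15, limma adjusted p = 0.01069). The brightest Il6st probe set gave 0.23 (adjusted p = 0.2915) for this difference and another, 1437303_at, -0.49 (adjusted p = 0.2224), so the probe sets did not share a direction. Without the arrays that stood apart the difference on 1421239_at was 0.81 (adjusted p = 0.05401), and in a fit of only the 2 groups compared 0.87 (adjusted p = 0.1052), so that it was not called in either.

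Of the A1-type genes, those linked to interferon or neurotoxic responses, Gbp2, an interferon-induced GTPase, was at 8.68 ± 1.52 in aSYN/Hsp70 and 9.87 ± 0.30 in wt, and Iigp1, another, at 9.11 ± 0.62 in aSYN/Hsp70 and 9.66 ± 0.30 in aSYN. Of the A2-type genes, S100a10 was at 12.43 ± 0.44 in aSYN/Hsp70 and 12.93 ± 0.19 in Hsp70, and Cd14, a lipopolysaccharide co-receptor, at 10.07 ± 0.11 in aSYN and 9.52 ± 0.39 in wt. Their adjusted p-values were 0.3021, 0.2407, 0.3417 and 0.8892 (SD, n = 6 each, limma). Another A1-type gene, Srgn, differed by -0.31 in aSYN/Hsp70 from aSYN (limma adjusted p = 0.175). Fkbp5 went the other way there, by 0.48 on 1448231_at (0.1973) and by 0.14 on its brightest probe set, 1416125_at. Among further A2-type genes, Sphk1 differed by 0.64 in Hsp70 from wt (0.8807). Stat3 differed by -0.78 in aSYN from wt on 1424272_at (0.8914), but by -0.16 on its brightest probe set, 1426587_a_at, and by -0.12 on 1460700_at. Of the pan-reactive genes, Aspg was lower by a difference of -0.95 in aSYN/Hsp70 than in wt (adjusted p = 0.3153).

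Of the complement genes, C1qb, a chain of C1q made by microglia, gave 3 probe sets with an unadjusted p under 0.05 in aSYN/Hsp70 against aSYN. The brightest, 1417063_at, was at 12.81 ± 0.41 in aSYN/Hsp70 and 13.20 ± 0.14 in aSYN (difference -0.39, adjusted p = 0.1851), and 1437726_x_at at 11.78 ± 0.28 in aSYN/Hsp70 and 12.45 ± 0.24 in aSYN (-0.67, adjusted p = 0.06552). On 1437726_x_at, aSYN was above wt by 0.66 (adjusted p = 0.2925). Of the acute phase genes, Saa3, a serum amyloid, was at 8.90 ± 0.65 in aSYN/Hsp70 and 7.90 ± 0.35 in wt (difference 0.99, adjusted p = 0.2673). Fth1 in aSYN/Hsp70 differed from aSYN by -0.25 on 1448771_a_at and by 0.16 on 1427021_s_at (limma adjusted p = 0.1787 and 0.1981). None of these was called.

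Markers of other cell types were set beside the members, as the mean deviation of a list's genes from their own means over all arrays. The endothelial list, 7 of 8 genes tested, ran from -0.07 to 0.33 in aSYN/Hsp70 and from -0.32 to -0.05 in aSYN, with 1 gene called, Cldn5, a tight junction protein (13.17 ± 0.34 in aSYN/Hsp70, 12.46 ± 0.27 in aSYN, limma adjusted p = 0.04603). The neuronal list, 5 of 5 tested, ran from -0.09 to 0 in aSYN/Hsp70 and from -0.11 to 0.10 in aSYN, and 4 of its 15 probe sets were called in that comparison, none of them the brightest of its gene. Syt1, a calcium sensor of synaptic vesicle release, was higher in aSYN/Hsp70 than in aSYN by 0.57 on 1421990_at (limma adjusted p = 0.01069) and by 0.47 on 1431191_a_at (0.03638). Map2, a microtubule-associated protein of dendrites, was higher by 0.71 on 1421327_at (0.0124) and by 0.54 on 1421328_at (0.03638). These calls, and that of Cldn5, are given with all arrays only. The choroid plexus list, 7 of 8 tested, ran from -0.57 to 0.10 in aSYN/Hsp70, -0.25 to 0.21 in aSYN, -0.17 to 0.16 in Hsp70 and -0.16 to 0.31 in wt. The astrocyte list, 10 of 10 tested, ran from -0.08 to 0.15 in aSYN/Hsp70, -0.08 to 0.09 in aSYN, -0.17 to 0.06 in Hsp70 and -0.05 to 0.15 in wt. In aSYN/Hsp70, the endothelial 0.33 and the choroid plexus -0.57 were on replicates 3 and 4, which stood apart. Over the other arrays of that group the endothelial list reached 0.09, and the choroid plexus list fell to -0.17. The other lists follow for aSYN/Hsp70, then aSYN. Blood cell genes (4 of 10 tested) ran from -0.93 to 1.07 and from -1.90 to 0.41, and reached 1.23 in wt. Ependymal genes (6 of 6) ran from -0.73 to 0.05 and from -0.31 to 0.49. Meningeal and fibroblast genes (8 of 8) ran from -0.25 to 0.33 and from -0.40 to 0.14. Microglial genes (9 of 10) ran from -0.23 to 0.16 and from -0.10 to 0.20. The lowest blood, ependymal and microglial aSYN/Hsp70 values were on replicate 4. The part of these lists in the members' differences was not tested.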

How the data were processed

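Whole brain RNA was measured on 24 Affymetrix arrays. The deposited intensity values are linear, 1 per probe set and array. From the values, each array has a trimmed mean of 2500 (2% left out at each end), and the authors' summary program is not named by the labels or the file. Genes were named from the platform annotation (34958 probe sets with 1 symbol, 932 with several, 9211 with none). To the intensities 16 was added, log2 was taken and the log2 values were quantile-normalised. limma 3.58.1 in R 4.3.3 (lmFit, eBayes) was fitted with 1 mean per group over 24 arrays, with Benjamini-Hochberg adjustment over 27022 probe sets and calls at 0.05. It was tested on simulated data. There, in aSYN/Hsp70 against aSYN, it recovered 18% of the log2 differences of 0.5 and 56% of those of 1. A difference of these sizes could thus go uncalled. Correlations used 100000 two-sided permutations within groups. All member probe sets were described; other list genes were named if called, otherwise up to 4 per list by unadjusted p. The members and lists were chosen with earlier results of these data known; same-gene and Gfap correlations, and the dim probe sets' differences without the arrays that stood apart, were added after the values were seen. Intensities carry no counting depth: the number of arrays limits the precision. Alternatives were the offset, filter, normalisation, array weights, sex, variance model, replicate number, groups in the fit and left-out arrays.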

Additional observations from a re-analysis of the deposited data

Results flagged for a closer look

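In 17 of 104 combinations of a member probe set and a group (16.35%), 1 array lay far from the other 5, with a gap to the nearest, as a share of the group's range, above Dixon's critical value. Chance gives about 1 in 20 for normally distributed values. The share over all probe sets was not computed, so it is not known whether these members differ from the rest. Of the 17, 10 were on arrays that stood apart and 9 on tested probe sets.

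Among the tested probe sets, Vim 1450641_at was at 13.09 on Hsp70 replicate 5, and Vim 1456292_a_at at 10.76 on Hsp70 replicate 3. Serpina3n was at 10.80 on Hsp70 replicate 2. Cd44 1423760_at was at 5.13 on Hsp70 replicate 3. Osmr 1418674_at was at 10.38 on aSYN/Hsp70 replicate 4 and at 6.05 on Hsp70 replicate 6. Timp1 was at 7.69 on aSYN replicate 2, the lowest of that group. Cp 1417496_at was at 10.14 on aSYN/Hsp70 replicate 3, and Cp 1448734_at at 6.36 on Hsp70 replicate 6.

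Among the dim probe sets, Cd44 1452483_a_at was at 7.41 on Hsp70 replicate 3, and Cd44 1443265_at at 7.30 on aSYN/Hsp70 replicate 3 and at 8.48 on Hsp70 replicate 3. Osmr 1418675_at was at 7.83 on Hsp70 replicate 5. Steap4 1460197_a_at was at 8.04 on aSYN/Hsp70 replicate 1 and at 8.06 on aSYN replicate 1. Cp 1441326_at was at 7.44 on aSYN/Hsp70 replicate 3 and at 7.95 on aSYN replicate 5.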

How the results depend on the processing

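Under 35 alternative settings, 3607 member tests gave 0 calls, with a smallest adjusted p of 0.2084 (Vim 1438118_x_at, aSYN/Hsp70 against aSYN, without aSYN/Hsp70 replicate 1). With the replicate number as a block the member count was also 0 in each comparison. Whole-array deviations showed little pairing by number: 36 same-number pairs correlated at -0.148 to 0.193. Of 24 arrays, 8 were closest to their own number. The number still tracked sex by sex-linked transcripts, with replicates 1 and 3 female and replicate 4 male in every group. A pairing by litter or batch could not be judged from these values.

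Over all probe sets, aSYN/Hsp70 against aSYN gave 194 calls, 70 with the replicate block, 43 with no dim filter, 7 with only the groups compared, 89 with sex, 369 with a trended robust variance, 324 with array weights, and 49 to 814 when 1 array was left out. aSYN against wt gave 1 call, but 217 with array weights, 35 once the 4 arrays that stood apart were dropped, and 0 to 5 when 1 array was left out. The interaction gave 0, but 81 with array weights. Of the other reactive and inflammation genes, 0 probe sets were called in aSYN against wt, but 2 with array weights. With array weights and sex it was also 2. The cause was not tested. Timp1 was not among the tested probe sets with an offset of 1 or with no quantile normalisation, since it fell below the filter.

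Of 43 named differences, 22 changed sign under some setting, none with a changed call; the cause was not tested. With array weights, the turned log2 differences were Serpina3n -0.04 (aSYN against wt), Vim 0.04 (Hsp70 against wt), Cp 0.004, Osmr -0.12 and Serpina3n -0.21 (aSYN/Hsp70 against wt), Cp 0.16 and Osmr -0.18 (aSYN/Hsp70 against aSYN), Osmr -0.04 and Vim -0.01 (aSYN/Hsp70 against Hsp70), Osmr -0.10 and Cd44 -0.14 (the interaction). With array weights and sex, the turned log2 differences were Serpina3n -0.06 (aSYN against wt), Vim 0.06 (Hsp70 against wt), Osmr -0.10 and Serpina3n -0.30 (aSYN/Hsp70 against wt), Cp 0.01 and Osmr -0.14 (aSYN/Hsp70 against aSYN), Osmr -0.04 and Vim -0.0019 (aSYN/Hsp70 against Hsp70), Osmr -0.08 and Cd44 -0.18 (the interaction). Without the arrays that stood apart, the turned log2 differences were Osmr 0.14 and Vim 0.04 (Hsp70 against wt), Cp 0.11, Osmr -0.13, Serpina3n -0.10 and Vim -0.03 (aSYN/Hsp70 against wt), Cp 0.28 and Osmr -0.23 (aSYN/Hsp70 against aSYN), Osmr -0.28 and Vim -0.07 (aSYN/Hsp70 against Hsp70), Osmr -0.38 and Cd44 -0.21 (the interaction). Without quantile normalisation, the turned log2 differences were Serpina3n -0.01 and Vim -0.02 (aSYN/Hsp70 against wt). With sex as a covariate, the turned log2 differences were Serpina3n -0.02 and Cd44 -0.04 (aSYN/Hsp70 against wt). With 1 array left out at a time, the differences that turned had these ranges: Osmr -0.12 to 0.27, Serpina3n -0.21 to 0.28 and S1pr3 -0.13 to 0.0049 (aSYN against wt), Osmr -0.52 to 0.17, Serpina3n -0.04 to 0.48 and Vim -0.09 to 0.07 (Hsp70 against wt), Osmr -0.11 to 0.36, Serpina3n -0.26 to 0.24, Cd44 -0.12 to 0.15 and Vim -0.07 to 0.12 (aSYN/Hsp70 against wt), Cp -0.48 to 0.05, Osmr -0.21 to 0.23, Serpina3n -0.30 to 0.14 and Timp1 -0.31 to 0.11 (aSYN/Hsp70 against aSYN), Cp -0.15 to 0.37 and Vim -0.05 to 0.12 (aSYN/Hsp70 against Hsp70), Osmr -0.09 to 0.61, Serpina3n -0.54 to 0.00092, Cd44 -0.21 to 0.66 and Vim -0.15 to 0.02 (the interaction).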
